A study of Mus musculus with 28 samples.

Results

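The genes described here make the peptides that MHC class I molecules show to T cells and load them. They were 10 genes of the liver count table, chosen by symbol with earlier results of these data known: *Psmb8*, *Psmb9*, *Psmb10*, *Psme1*, *Psme2*, *Tap1*, *Tap2*, *Tapbp*, *B2m* and *Nlrc5*. All 10 were found among the 49585 features of the table, and all 10 were among the 21583 genes with enough reads to be tested. In males, 6 of the 10 were lower in mice carrying extra SIRT6 than in wild-type mice, against 11.0% of all genes tested. The count was 4 with wild-type male 6 left out. *Tap1* was 2.74-fold and *Psmb9* 2.54-fold lower. In females none of the 10 passed the test, against 0.0278% of all genes in either direction. When the male and female effects were tested against each other, only *Tap1* of the 10 passed.

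Most cells degrade proteins with a constitutive 20S proteasome, whose catalytic subunits are encoded by *Psmb5*, *Psmb6* and *Psmb7*. Interferon gamma acts in part through the transcription factor IRF1 to induce the replacement subunits PSMB8, PSMB9 and PSMB10, which form the immunoproteasome. The peptides are carried into the endoplasmic reticulum by the TAP transporter, loaded with the help of tapasin and held by a heavy chain paired with beta-2 microglobulin, under transcriptional control of NLRC5. Resident macrophages, dendritic cells and lymphocytes of the liver carry more of this system than resting hepatocytes do.

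The livers came from C57BL/6JOlaHsd mice aged 5 to 7 months, 7 in each of 4 groups: wild-type (WT) males, SIRT6-transgenic (SIRT6-tg) males, WT females and SIRT6-tg females. SIRT6 is a deacylase, and per the study's methods all transgenic mice came from a single line, so the genotype is that of 1 transgene insertion, in animals that carry it from birth. Whole liver RNA was sequenced, and total counts ranged from 18758863 to 35393069 per library with a median of 26012203. *Sirt6* was at 1.69 to 3.24 CPM (counts relative to the normalized library total) in WT males and at 198 to 358 in SIRT6-tg males, and at 1.80 to 6.22 in WT and 16.4 to 50.2 in SIRT6-tg females. The genotype labels thus held in every library. The sex labels were not checked in this way, since the WT ranges overlapped. The transgenic males carried more *Sirt6* transcript than the transgenic females. Sex and transgene level therefore cannot be told apart in any comparison of the genotype effect between the sexes. The 10 hepatocyte markers summed to 106618 to 209107 CPM over the 28 livers.

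Of the 10 genes, 5 lie in the MHC region of chromosome 17 (build GRCm38, the same as mm10). *Psmb9* (chr17:34181987-34187764, minus strand), *Tap1* (chr17:34187553-34197225, plus strand), *Psmb8* (chr17:34197721-34201454, plus strand) and *Tap2* (chr17:34203527-34216321, plus strand) follow each other, with 495 bases between *Tap1* and *Psmb8* and 2072 between *Psmb8* and *Tap2*. *Tapbp* (chr17:33915899-33929292, plus strand) is 252694 bases from *Psmb9*. *Psme1* (chr14:55578123-55581529, plus strand) and *Psme2* (chr14:55587441-55591113, minus strand) are neighbours on chromosome 14, *B2m* is at chr2:122147686-122153083 (plus strand), and *Psmb10* (chr8:105935735-105938444, minus strand) and *Nlrc5* (chr8:94434356-94527272, plus strand) are far apart on chromosome 8.

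*Psmb9* and *Tap1* point away from each other and have neighbouring start sites. In RefSeq's annotation of GRCm38.p6 their start sites leave 225 bases between them, shown first because the gene on each side of it had the largest changes of the set, followed by the 250 bases before the start sites of *Psmb8* and *B2m*, a subunit gene that was lower in SIRT6-tg males and a gene that was not. The Gencode coordinates given above have other start sites for *Psmb9*, *Tap1* and *Psmb8*. By them the *Psmb9*-*Tap1* stretch lies inside the *Psmb9* gene and the *Psmb8* stretch inside the *Psmb8* gene. Capitals mark letters of the searched motifs on either strand.
Psmb9-Tap1, chr17:34187331-34187555, plus strand: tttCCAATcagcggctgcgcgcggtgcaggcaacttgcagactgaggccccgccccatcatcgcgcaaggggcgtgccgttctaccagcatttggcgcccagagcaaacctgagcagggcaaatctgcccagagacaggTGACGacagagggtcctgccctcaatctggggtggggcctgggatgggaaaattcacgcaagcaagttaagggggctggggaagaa
Psmb8, chr17:34197945-34198194, plus strand: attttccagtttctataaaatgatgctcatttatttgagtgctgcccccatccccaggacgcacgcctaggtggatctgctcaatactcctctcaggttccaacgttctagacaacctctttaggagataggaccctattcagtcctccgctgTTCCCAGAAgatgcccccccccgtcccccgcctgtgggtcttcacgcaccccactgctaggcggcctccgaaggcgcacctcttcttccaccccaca
B2m, chr2:122147437-122147686, plus strand: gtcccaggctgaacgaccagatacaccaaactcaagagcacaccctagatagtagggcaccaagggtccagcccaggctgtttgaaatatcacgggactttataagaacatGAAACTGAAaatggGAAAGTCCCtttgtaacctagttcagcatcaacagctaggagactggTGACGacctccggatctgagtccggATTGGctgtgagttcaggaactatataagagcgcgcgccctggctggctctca

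The motifs, searched on both strands of RefSeq promoter windows of 300 bases (250 before and 50 after the start), were an interferon response core GAAANNGAA, a gamma-activated site TTCNNNGAA, a kappa B core GGGNNTTNC, CCAAT, and TGACG, the core of the X2 box of class I promoters, which was added after the promoters had been read. They occurred in 8.56%, 8.3%, 15.2%, 37.4% and 20.8% of all 32851 promoters of the table, so single matches are common. The table held 8 of the 10 genes, and not *Tap2* or *Nlrc5*. The *Psmb9*-*Tap1* stretch held CCAAT and TGACG, *Psmb8* held the letters of the gamma-activated site 97 bases before its start, and *B2m* held the interferon core, the kappa B core, TGACG and CCAAT. *Psme1* held the interferon core, *Psme2* held TGACG, *Tapbp* held CCAAT at 2 places and *Psmb10* held none of the 5 motifs. The presence of letters is a description of these windows and not of binding.

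Per length of exon, *B2m* had by far the highest level, with a mean over the 28 livers of 2994 reads per kilobase of exon, scaled like CPM (RPKM). *Psme1* (52.998 RPKM), *Psmb10* (45.0), *Tapbp* (37.3) and *Psme2* (30.4) came next, then *Psmb8* (14.8), *Psmb9* (10.4), *Tap1* (9.05) and *Tap2* (8.04), with the regulator *Nlrc5* lowest at 3.20 RPKM. Among *Psmb9*, *Tap1* and *Tap2*, the order depended on the group: in WT males the mean ± SD was 18.6 ± 6.54, 15.8 ± 3.66 and 11.04 ± 2.87 RPKM (n = 7), and in SIRT6-tg males it was 7.31 ± 2.40, 5.78 ± 0.231 and 7.18 ± 1.59. In WT males *Tap1* and *Tap2* differed by more than the SD of either, and *B2m* stood above and *Nlrc5* below all others. The remaining neighbours in the order differed by less than the larger SD of each pair. Exon length took in every annotated exon of a gene, so the order also depends on the annotation.

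The 3 catalytic subunits come first. *Psmb8* (LMP7, the chymotrypsin-like subunit) ranged in WT males from 45.1 to 165 CPM with a median of 71.3, and in SIRT6-tg males from 25.8 to 71.2 with a median of 35.8. *Psmb9* (LMP2, which takes the place of PSMB6) ranged from 37.3 to 107 CPM in WT males, median 68.7, and from 17.1 to 45.1 in SIRT6-tg males, median 24.2. For *Psmb8*, 5 of the 7 SIRT6-tg males were below every WT male, and for *Psmb9* 6 of 7 were. The groups overlapped through the rest: the highest SIRT6-tg male was at 71.2 CPM for *Psmb8*, beside the WT median of 71.3. For *Psmb9* the highest was at 45.1 CPM, inside the WT range. *Psmb8* was lower in SIRT6-tg males by a log2 fold change of -0.99 (SE 0.31, adjusted p = 0.0211, edgeR quasi-likelihood test with Benjamini-Hochberg adjustment over all genes tested, as for every adjusted p of a single gene), and *Psmb9* by -1.35 (SE 0.33, adjusted p = 0.00368). *Psmb10* (MECL-1, the trypsin-like subunit) ranged from 64.0 to 204 CPM in WT males, median 91.0, and from 43.4 to 131 in SIRT6-tg males, median 62.4. Its log2 fold change of -0.59 (SE 0.33) did not pass the test (adjusted p = 0.219), and its interval of -1.27 to 0.08 held the value of *Psmb8*.

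The PA28 activator caps the proteasome and opens it, and its alpha and beta subunits are encoded by *Psme1* and *Psme2*. *Psme1* ranged from 106 to 192 CPM in WT males, median 130, and from 89.4 to 177 in SIRT6-tg males, median 112. *Psme2* ranged from 39.5 to 126 CPM, median 51.9, and from 32.6 to 106, median 44.1. The groups overlapped over most of their range, and neither gene passed the test in males, with log2 fold changes of -0.21 (SE 0.18, adjusted p = 0.441) and -0.15 (SE 0.30, adjusted p = 0.782). Their 95% intervals reached down to -0.57 for *Psme1* and -0.75 for *Psme2*, short of the values of *Psmb8* and *Psmb9*.

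*Tap1* and *Tap2* encode the paired chains of the peptide transporter. *Tap1* ranged from 62.9 to 115 CPM in WT males with a median of 78.7, and from 29.9 to 33.1 in SIRT6-tg males with a median of 31.8. All 7 SIRT6-tg males were below all 7 WT males, and they varied little, at 31.7 ± 1.26 CPM (SD, n = 7). The log2 fold change of *Tap1* was -1.45 (SE 0.23, adjusted p = 1.95e-05), the lowest adjusted p among the 10 genes. *Tap2* ranged from 28.2 to 62.0 CPM in WT males, median 41.4, and from 20.2 to 38.2 in SIRT6-tg males, median 26.0, with 4 of 7 SIRT6-tg males below every WT male. It was lower by -0.62 (SE 0.19, adjusted p = 0.0184).

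Tapasin, encoded by *Tapbp*, bridges the transporter to the empty heavy chain, and beta-2 microglobulin, encoded by *B2m*, is the light chain of every class I molecule. *Tapbp* ranged from 127 to 212 CPM in WT males, median 177, and from 87.6 to 120 in SIRT6-tg males, median 99.2, with no overlap. Its log2 fold change was -0.74 (SE 0.14, adjusted p = 3.11e-04), a 1.67-fold lower level. *B2m* ranged from 2144 to 3867 CPM in WT males, median 2680, and from 1750 to 3495 in SIRT6-tg males, median 2236. The light chain thus overlapped between the groups, and its log2 fold change of -0.16 (SE 0.16) did not pass the test (adjusted p = 0.528, interval -0.49 to 0.17).

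NLRC5 is the class I transactivator, which acts at the promoters of heavy chains, *B2m*, *Tap1* and *Psmb9*. *Nlrc5* ranged from 21.9 to 40.8 CPM in WT males, median 32.2, and from 11.9 to 27.2 in SIRT6-tg males, median 17.7. It was lower in SIRT6-tg males by -0.74 (SE 0.20, adjusted p = 0.00920), with 5 of 7 below every WT male.

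**Figure D1:**
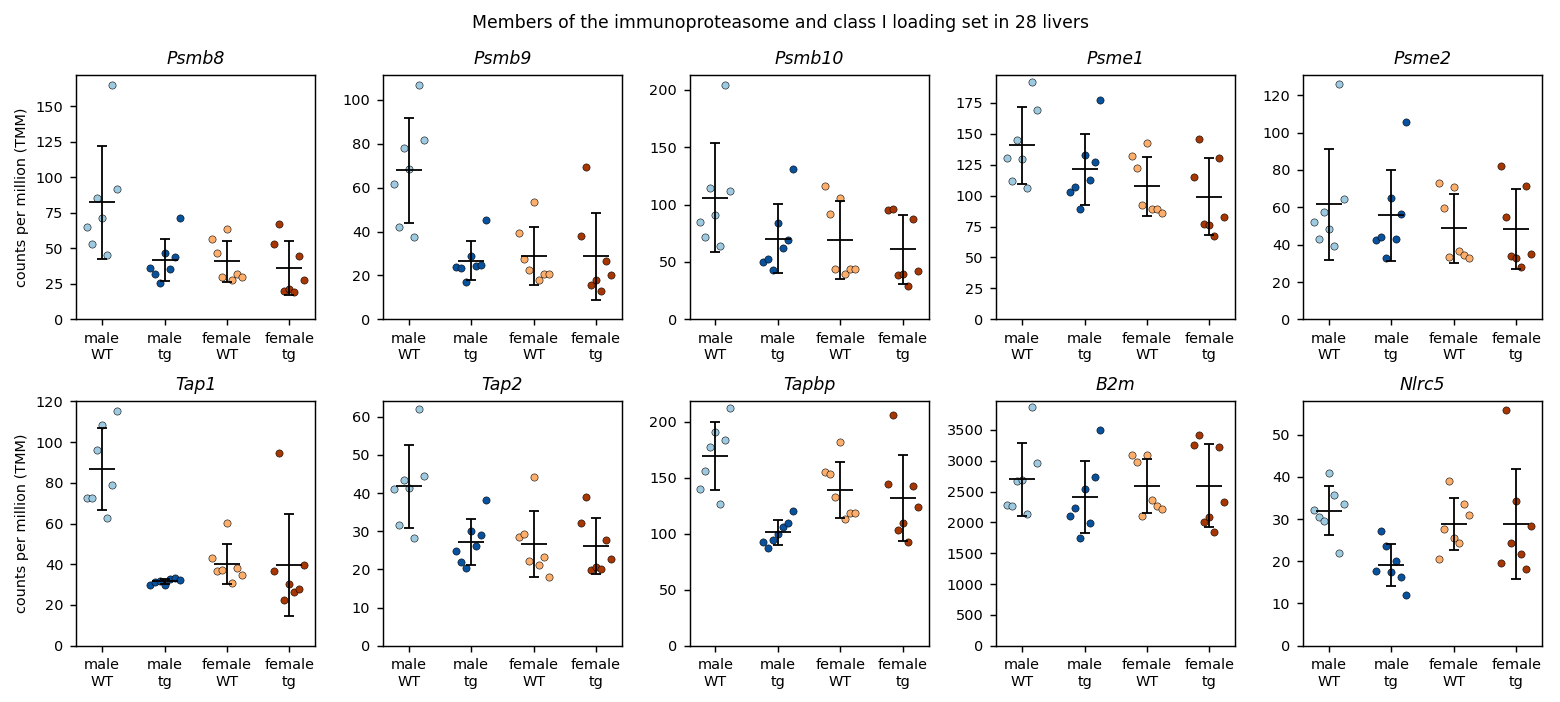
Level of each of the 10 genes in CPM (vertical axis, linear from 0) in every liver of the 4 groups (points), with the mean and SD (bars, n = 7). The SIRT6-tg males lie below the WT males without overlap for *Tap1* and *Tapbp*, and the groups of females overlap for all 10 genes.

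In all, 6 of the 10 genes were lower in SIRT6-tg males and none was higher, against 11.0% of all genes tested that were lower and 9.68% that were higher. The median log2 fold change of the 10 was -0.68 and that of all genes tested 0.06. For 2 of the 10 genes, *Tap1* and *Tapbp*, all SIRT6-tg males were below all WT males, against 4.37% of all genes. The count depended on 1 liver: without WT male 6, which had the highest level of 7 of the 10 genes in its group, 4 of the 10 passed, since *Psmb8* (adjusted p = 0.0696) and *Tap2* (adjusted p = 0.0519) no longer did. *Tap1*, *Psmb9*, *Tapbp* and *Nlrc5* passed with each of the 28 libraries left out in turn. Of the 10 genes, 5 lie close together on chromosome 17, so they are not independent in position.

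In females, no gene of the set passed the test in edgeR, against 0.0278% of all genes in either direction, none had an unadjusted p under 0.05, and none passed with DESeq2. The log2 fold changes lay between -0.18 and 0.01, and their median was -0.02. *Tap1* ranged from 30.6 to 60.4 CPM in WT females, median 37.1, and from 22.2 to 94.8 in SIRT6-tg females, median 30.5, and *Psmb9* from 17.8 to 53.4, median 22.5, and from 12.7 to 69.3, median 20.4. The groups overlapped for each of the 10 genes. The interval of the *Tap1* difference was -0.46 to 0.44 on the log2 scale, which does not hold the value of the males, and that of *Tapbp* was -0.37 to 0.22. The interval of *Psmb8*, -0.81 to 0.44, was wider. Without SIRT6-tg female 2, the highest of its group, the value of *Tap1* was -0.39 and did not pass either.

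**Figure D2:**
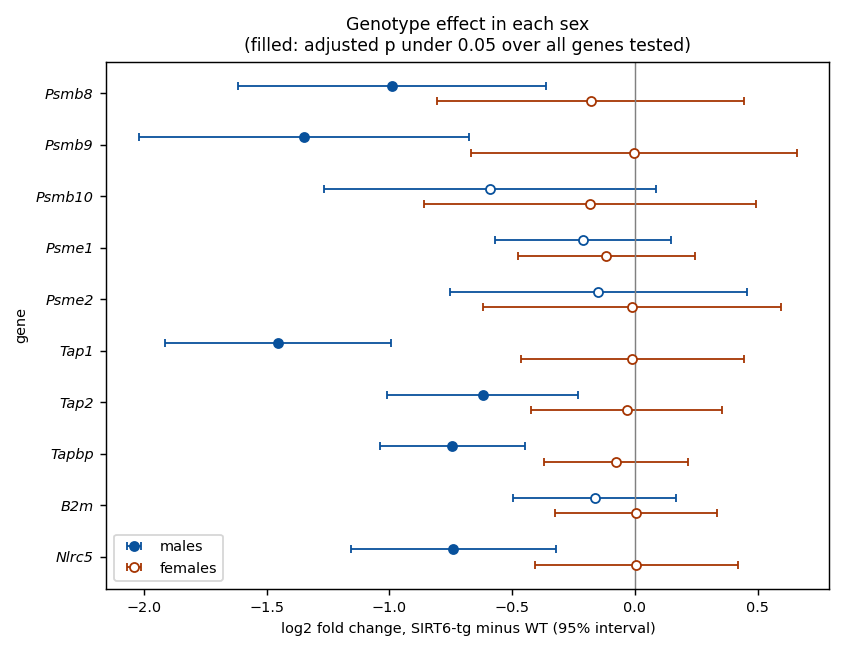
Log2 fold change of SIRT6-tg over WT with its 95% interval (horizontal axis) for each gene (vertical axis), in males (blue) and females (brown), filled where the adjusted p is under 0.05. All 10 male values lie below 0, 6 of them filled, and the female values lie between -0.18 and 0.01.

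Tested as a difference between the sexes, the genotype effect differed for 1 of the 10 genes, *Tap1*, against 3.84% of all genes that were more negative in males. Its effect was more negative in males by 1.44 on the log2 scale (value -1.44, SE 0.31, adjusted p = 0.00588). *Tapbp* (-0.67, adjusted p = 0.0508), *Psmb9* (-1.34, adjusted p = 0.0912), *Nlrc5* (-0.75, adjusted p = 0.140) and *Psmb8* (-0.81, adjusted p = 0.319) did not pass. With single libraries left out *Tapbp* passed in 9 of 28 fits and *Psmb9* in 1. For those genes, a call in males and none in females does not show that the sexes differed.

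The levels of the 2 WT groups differed as well. In WT males 4 of the 10 genes were higher than in WT females, against 6.65% of all genes: *Psmb9* (log2 difference 1.24, adjusted p = 0.0114), *Tap1* (1.11, adjusted p = 9.81e-04), *Psmb8* (1.01, adjusted p = 0.0277) and *Tap2* (0.65, adjusted p = 0.0214). All 7 WT males were above all 7 WT females for *Tap1*. Without WT male 6 only *Psmb9* and *Tap1* of these passed. This comparison uses the same 7 WT males as the comparison of genotypes, so the values are given side by side and not as separate evidence. Between the SIRT6-tg groups 1 of the 10 was lower in males, *Nlrc5* (-0.59, adjusted p = 0.0344), against 10.2% of all genes, and without SIRT6-tg female 2 it did not pass (adjusted p = 0.154). For *Psmb8*, *Psmb9* and *Tap2* the highest mean level was thus that of the WT males, while the other 3 groups lay within 1 SD of each other: *Psmb9* was at 67.9 ± 23.9 CPM in WT males, 26.8 ± 8.80 in SIRT6-tg males, 28.9 ± 13.0 in WT females and 28.7 ± 19.8 in SIRT6-tg females (SD, n = 7).

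The immunoproteasome forms in competition with the constitutive subunits, so each inducible subunit was set against the one it replaces, as a ratio of counts per kilobase of exon within a library, in which library scaling cancels. *Psmb5* (the partner of *Psmb8*) was at 37.5 ± 10.3 CPM in WT males and 50.6 ± 14.5 in SIRT6-tg males, *Psmb6* at 122 ± 36.3 and 171 ± 55.1, and *Psmb7* at 80.1 ± 5.91 and 103 ± 15.4 (SD, n = 7). Of these partners *Psmb7* was higher in SIRT6-tg males (log2 fold change 0.36, adjusted p = 0.0144), and *Psmb5* (0.43, adjusted p = 0.147) and *Psmb6* (0.49, adjusted p = 0.108) did not pass. *Psmb7* no longer passed without WT male 4 or SIRT6-tg male 7. Exon length took in every annotated exon of a gene, 3381 bases for *Psmb8*. The size of a ratio thus depends on the annotation, while its difference between groups does not. By CPM, without division by length, *Psmb8* was at 82.3 in WT males, above *Psmb5* at 37.5.

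The *Psmb8* to *Psmb5* ratio ranged from 0.397 to 0.784 in WT males, median 0.568, and from 0.196 to 0.239 in SIRT6-tg males, median 0.216. The *Psmb9* to *Psmb6* ratio ranged from 0.205 to 0.380, median 0.276, and from 0.0722 to 0.0917, median 0.0827. Both ratios separated the groups without overlap, which the levels of *Psmb8* and *Psmb9* alone did not. On the log2 scale the differences were -1.37 and -1.80 (each p = 0.000583 by an exact two-sided permutation test, the smallest p that 7 against 7 mice allow, and adjusted p = 0.00262 over the 9 ratio tests). The *Psmb10* to *Psmb7* ratio ranged from 1.70 to 4.53 in WT males, median 2.47, and from 0.994 to 1.99 in SIRT6-tg males, median 1.26. It overlapped between the groups and differed by -0.93 (exact permutation p = 0.00175, adjusted p = 0.00481), so this ratio was lower although the level of *Psmb10* did not pass its own test. The ratios held most tightly in SIRT6-tg males, where the SD of the log2 *Psmb8* to *Psmb5* ratio was 0.11 against 0.47 for *Psmb8* alone.

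In females the median *Psmb8* to *Psmb5* ratio was 0.450 in WT and 0.384 in SIRT6-tg mice, the *Psmb9* to *Psmb6* ratio 0.139 and 0.128, and the *Psmb10* to *Psmb7* ratio 1.42 and 1.35. None passed the test between the genotypes (log2 differences -0.09, -0.04 and -0.14, with exact permutation p of 0.695, 0.909 and 0.652). Male minus female effects of the genotype came to -1.28 for *Psmb8* over *Psmb5* (adjusted p = 0.00605, exact permutation of genotype within each sex) and -1.76 for *Psmb9* over *Psmb6* (adjusted p = 0.00481, same exact test). For *Psmb10* over *Psmb7* it was -0.79 and did not pass (adjusted p = 0.117, same exact test). Genotype was shuffled in both sexes, so these p-values refer to no genotype effect in either sex. They are not a test of equal effects in the sexes.

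**Figure D3:**
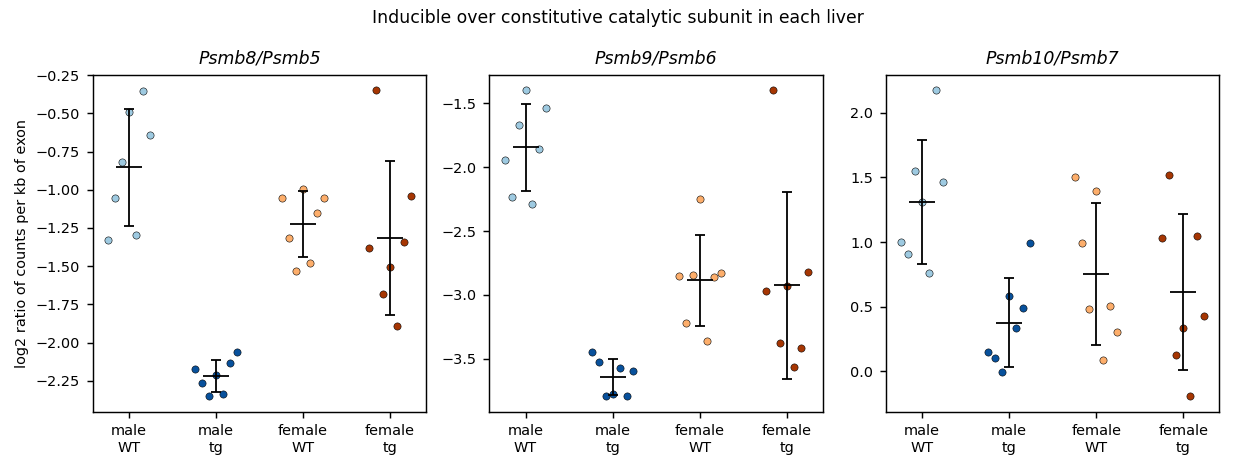
Log2 ratio of each inducible catalytic subunit to the constitutive subunit it replaces, per kilobase of exon (vertical axes), in every liver (points) with the mean and SD (bars, n = 7 per group). SIRT6-tg males lie below all WT males for *Psmb8* over *Psmb5* and *Psmb9* over *Psmb6*, and SIRT6-tg female 2 lies at -1.40 for *Psmb9* over *Psmb6*, above the other females.

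The 14 constitutive core subunits (PSMA1 to PSMA7 and PSMB1 to PSMB7) had positive log2 fold changes in males, 14 of 14, with a median of 0.36, and 2 of them, *Psma3* (0.36, adjusted p = 0.0113) and *Psmb7*, were higher. Of all genes tested 9.68% were higher. The number of core calls depended on the setting, at 0 with upper-quartile factors or library size alone, 1 with the males fitted alone, 12 with 2 surrogate variables, 8 without WT male 6 and 1 without WT male 4 or SIRT6-tg male 7. The median of the core was positive under each of these settings. With library size alone, which moved the median log2 fold change of all genes in males from 0.06 to -0.22, it was 0.06 and 11 of the 14 values were positive. With library size alone the 10 genes of the set had a median of -0.97 and 9 of them were lower, all but *Psme2*. In females the core had a median of -0.03 and no call. Of the 8 assembly factors, other activators and inhibitor of the proteasome, none passed in males (median 0.20), at 2 negative and 6 positive values.

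Heavy chains were the list with the most calls of the pathway: of 16 listed genes 14 were tested, 11 were lower in SIRT6-tg males and none was higher, with a median of -0.78. Of all genes tested 11.0% were lower and 9.68% were higher. *H2-D1*, a classical heavy chain, ranged from 802 to 1332 CPM in WT males, median 1131, and from 610 to 835 in SIRT6-tg males, median 636, and was lower by -0.65 (SE 0.15, adjusted p = 0.00262). *H2-K1*, the other classical heavy chain, ranged from 1823 to 2953 CPM, median 2474, and from 1589 to 2393, median 1727, and did not pass (-0.33, adjusted p = 0.130). The heavy chains with the largest changes were nonclassical and low: *H2-M2* (-6.03, adjusted p = 4.28e-08) with 49 to 508 reads per WT male and 2 to 5 per SIRT6-tg male, *H2-Q2* (-1.55), *H2-T10* (-1.04) and *H2-M3* (-0.97). In none of these 4 did the groups of males overlap, while 4.37% of all genes tested had every SIRT6-tg male below every WT male. They were named for their large changes in the same males, so this is not separate evidence. Heavy chain genes are near copies of each other and only uniquely aligned reads were counted, so the split of reads among them is uncertain. None of the 14 passed in females.

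Of the 12 chaperones and peptidases of the pathway, 1 was lower and 2 were higher in SIRT6-tg males, with a median of 0.20. Of all genes tested 11.0% were lower and 9.68% were higher, so these counts are near those shares. *Tapbpl*, which encodes the tapasin relative TAPBPR, was lower by -0.61 (adjusted p = 6.03e-04) without overlap, from 27.8 to 43.2 CPM in WT males and from 20.1 to 24.1 in SIRT6-tg males. It was named for the size of its change, and 4.37% of all genes tested had every SIRT6-tg male below every WT male. *Hspa5*, the chaperone BiP of the endoplasmic reticulum, was higher (0.66, adjusted p = 0.0195), as was *Lap3*, a leucine aminopeptidase (0.43, adjusted p = 2.19e-04). *Hspa5* did not pass without WT male 2, WT male 4 or SIRT6-tg male 6, nor under upper-quartile scaling, library size alone or a fit of the males alone, and *Lap3* not under library size alone.

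Interferon gamma and the transcription factor *Irf1* were lower in SIRT6-tg males. *Ifng* itself was near the limit of detection, with 4 to 43 reads per WT male and 1 to 5 per SIRT6-tg male, 142 and 16 in all, and was lower in SIRT6-tg males (-2.82, SE 0.50, adjusted p = 1.01e-04). *Irf1*, which binds the interferon response motif, ranged from 74.7 to 127 CPM in WT males, median 90.6, and from 26.0 to 57.3 in SIRT6-tg males, median 34.7 (-1.28, SE 0.17, adjusted p = 1.62e-06). The groups of males did not overlap for *Irf1*, while 4.37% of all genes tested had every SIRT6-tg male below every WT male. For *Ifng* the read counts overlapped. Only the scaled levels were apart, with the lowest WT male at 0.180 CPM and the highest SIRT6-tg male at 0.173. *Ciita*, the class II counterpart of *Nlrc5*, fell from a median of 11.0 CPM to 1.29 (-3.10, SE 0.33, adjusted p = 9.01e-08). *Socs1*, the feedback inhibitor of the pathway, fell from 4.76 to 0.660 (-2.62, adjusted p = 2.36e-08). *Socs1* was named for the size of its change in the same males, so its values are not separate evidence.

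Of the 15 regulators, 6 were lower in SIRT6-tg males (among them *Irf1*, *Irf8* at -1.74 and *Ciita*) and 3 were higher (*Rfxap*, *Rfxank* and *Nfyc*), with a median of -0.19. Of all genes tested 11.0% were lower and 9.68% were higher. RFX5, RFXAP and RFXANK form the complex that NLRC5 and CIITA bind at promoters. *Rfxap* (0.36, adjusted p = 0.00917) and *Rfxank* (0.41, adjusted p = 0.0252) were higher, while *Rfx5* did not pass (-0.56, adjusted p = 0.0838). *Rfxank* did not pass with RLE factors, upper-quartile factors, library size alone or the males fitted alone, nor in 6 of the 28 fits with a library left out, and *Rfxap* did not pass with upper-quartile factors, library size alone or the males fitted alone. The number of regulators that were higher was thus 2 with RLE factors, 1 with upper-quartile factors and 0 with library size alone or the males fitted alone. Of the 9 interferon and signalling genes, 3 were lower (*Ifng*, *Socs1* and *Ifngr1*, -0.44) and 1, *Ifnar2*, was higher (0.30, adjusted p = 0.0133), though not with upper-quartile factors, library size alone or the males fitted alone. In females no gene of either list passed. Male and female effects of the genotype differed for *Irf1* (-1.23, adjusted p = 0.00215), *Socs1* (-2.31, adjusted p = 3.37e-04) and *Ciita* (-2.72, adjusted p = 5.86e-04), and not for *Ifng* (-2.13, adjusted p = 0.110).

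**Figure D4:**
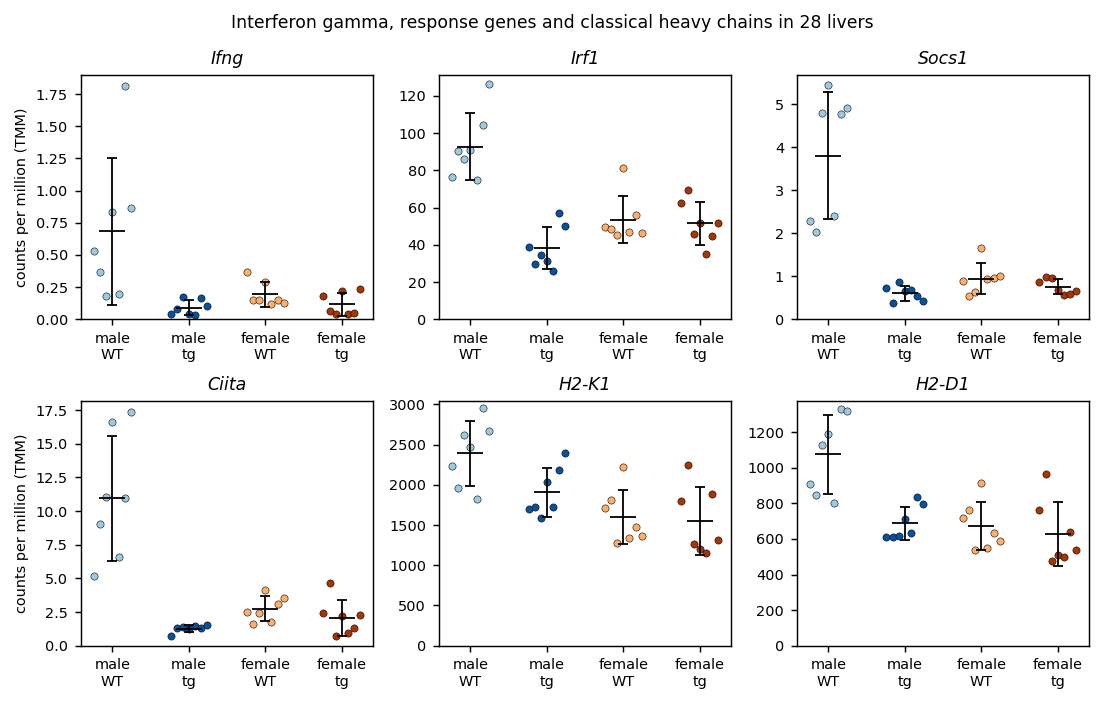
Level in CPM (vertical axes, linear from 0) of *Ifng*, *Irf1*, *Socs1*, *Ciita* and the classical heavy chains *H2-K1* and *H2-D1* in every liver (points), with the mean and SD (bars, n = 7). SIRT6-tg males lie below all WT males for *Irf1*, *Socs1* and *Ciita*, while *H2-K1* and *H2-D1* overlap. For *Ifng* the groups of males nearly touch, at 0.180 CPM in the lowest WT and 0.173 in the highest SIRT6-tg male. Of all genes tested, 4.37% had every SIRT6-tg male below every WT male.

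Markers of immune cells were lower in SIRT6-tg males too, to an extent that differed between the lists. Their relation to the 10 genes from mouse to mouse was not computed. All 10 T cell markers were lower in SIRT6-tg males (median log2 fold change -2.38), with a summed level of 18.4 to 55.3 CPM in WT males and 5.71 to 8.71 in SIRT6-tg males, without overlap. All 10 macrophage markers were lower (median -1.20), at 470 to 1527 CPM against 385 to 656, as were 5 of 6 dendritic cell markers (median -1.44), at 12.6 to 27.3 CPM against 4.54 to 6.69. Of the natural killer cell, B cell and neutrophil markers, 3 of 5, 3 of 5 and 1 of 4 tested were lower, at 5.77 to 27.2 against 2.29 to 4.58 CPM, 8.83 to 16.0 against 5.10 to 9.74 CPM and 5.01 to 17.4 against 3.04 to 12.05 CPM. Stellate cell markers were lower in 5 of 5 (283 to 524 against 220 to 319 CPM), endothelial markers in 1 of 5 (172 to 253 against 165 to 215 CPM) and cholangiocyte markers in 0 of 5 (32.4 to 88.0 against 28.8 to 54.4 CPM). Hepatocyte markers were higher in 5 of 10 (106618 to 145510 against 131677 to 181621 CPM) and red cell markers in 1 of 5 (202 to 504 against 186 to 733 CPM). Over all genes tested, 11.0% were lower and 9.68% were higher in SIRT6-tg males. The hepatocyte count was 3 with RLE factors, 1 with upper-quartile factors or library size alone, 2 with the males fitted alone, and 7 with surrogate variables. It was 2 without WT male 3, 4 or 7 or SIRT6-tg male 4, 3 without SIRT6-tg male 6 or 7, and 4 to 6 without each of the other libraries. No marker of any list passed in females in edgeR, where 4 of the 10 T cell markers had an unadjusted p under 0.05, and no gene of the lists was at 0 throughout a group except the neutrophil marker *Ly6g* in SIRT6-tg males. In whole liver, fewer cells of a type and less RNA per cell cannot be told apart, and the part of immune cells in the lower levels of the 10 genes was not tested.

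Apart from *Nlrc5*, the genes were positively correlated in every pair from mouse to mouse, though only weakly for *Tap1* and *Psme2* (r = 0.32). These were deviations from the group means pooled over the 28 livers. After subtraction of each group's mean, the median Pearson correlation over the 45 pairs of genes was 0.85 across the 28 livers, and 27 pairs were above 0.8. The lowest was -0.55, for *Psme2* and *Nlrc5*, and 7 pairs were below 0, each of them with *Nlrc5*. *Psmb9* followed the mean of the other 9 most closely (r = 0.98), then *Psmb8* (0.97) and *Psme1* (0.96). *Tap1* followed less closely (0.67) and *Nlrc5* did not (-0.23). Between single genes, *Nlrc5* had r = 0.45 with *Tap1* and 0.04 with *Tapbp*. The points share libraries and their scaling, so these correlations are a description. WT male 6 was highest in its group for 7 of the 10 genes, SIRT6-tg male 7 for 8, WT female 4 for 6 and SIRT6-tg female 2 for 9, while *Nlrc5* was lowest in its group in WT male 6 and SIRT6-tg male 7.

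The constitutive core followed the same variation. The mean deviation of the 10 genes and that of the 14 core subunits had r = 0.80 and Spearman's rho = 0.82 over the 28 livers, and r = 0.77 without the 2 livers farthest from the median. With the log2 normalization factor of the library r was -0.28, and with its log2 total count 0.05. The normalization factors themselves did not overlap between the male groups (1.06 to 1.17 in WT and 0.821 to 0.993 in SIRT6-tg males). SIRT6-tg female 2 stood apart from this relation, with the 10 genes on average 0.85 above its group's mean and the core 0.07 above.

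The 10 genes outside the set whose pattern was most like the mean of the set were *H2-K1* (r = 0.96), *AW112010* (0.94), *H2-D1* (0.94), *Ube2l6* (0.93), *H2-T23* (0.93), *H2-T22* (0.92), *Nmi* (0.91), *H2-Eb1* (0.89), *Ifitm3* (0.89) and *H2-Q4* (0.89), among 21573 genes ranked over 28 livers. Of these, 5 are class I heavy chains and *H2-Eb1* is a class II chain. In SIRT6-tg males *AW112010* (-0.88), *H2-D1*, *H2-T22* (-0.49), *H2-Eb1* (-2.72) and *H2-Q4* (-0.96) were lower, and *H2-K1*, *Ube2l6* (-0.34), *H2-T23* (-0.39), *Nmi* (0.00) and *Ifitm3* (-0.10) did not pass. Likeness after subtraction of the group means was thus found in genes with and without a difference between the genotypes.

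**Figure D5:**
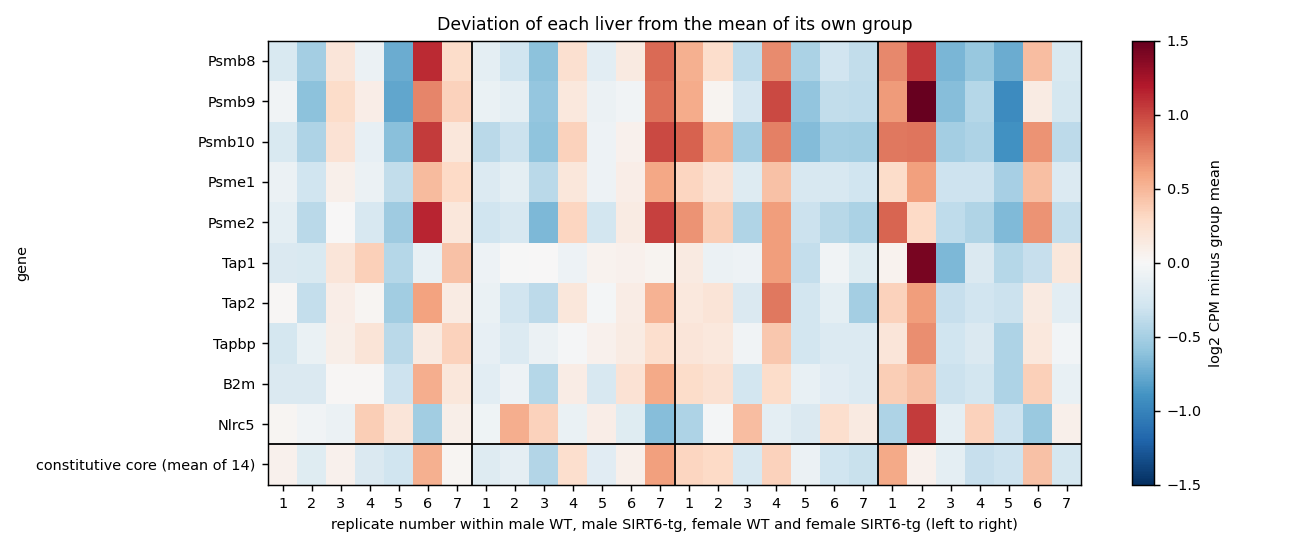
Deviation of each liver from the mean of its own group in log2 CPM (colour) for the 10 genes and the mean of the 14 constitutive core subunits (rows), in the 28 livers (columns, by group and replicate number). WT male 6 and SIRT6-tg male 7 are above their groups for most genes and for the core, *Nlrc5* is below its group's mean in both, and SIRT6-tg female 2 is high for the 10 genes with the core near its group's mean.

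Some counts are less certain than the number of reads implies, since the strand setting of the counting is not given in the sources used here. In the Gencode annotation *Psmb9* and *Tap1* share 212 exonic bases on opposite strands, 5.79% and 3.87% of their exon lengths. *Tapbp* shares 24.9% of its exon length with the antisense gene *Gm19412*, *Psmb8* shares 14.7% with *Gm20496* and *Tap2* shares 14.1% with *Gm15821*. Reads in these stretches cannot be assigned to a strand if strand was not used. *Psme2* has a near copy, *Psme2b*, so its count of uniquely aligned reads is uncertain as well.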

How the data were processed

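The data were liver RNA-seq counts of 28 mice. The authors aligned single-end reads of NEBNext Ultra libraries to mm10 with STAR 2.5.0a, counted uniquely aligned reads on Gencode vM12 genes with HTSeq, and deposited raw counts without normalization, 1 column per library. Every column was matched to 1 sample by name (0 unmapped). The strand setting is not given in the sources used here. Total counts limit the precision of low genes such as *Ifng*, and intervals cover the spread between mice.

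Symbols and coordinates came from Gencode vM21 on GRCm38 (49326 features with a symbol), and 154 of 155 listed symbols matched. Genes with a mean of at least 0.5 after DESeq2 size factors were kept (21583). Scaling was by TMM. The robust quasi-likelihood test of edgeR 4.0.16 in R 4.3.3 was fitted to the 4 groups jointly without covariates, and p-values were adjusted by Benjamini-Hochberg over all genes tested, with a threshold of 0.05. The study compared genotypes with DESeq2, which was an alternative here (1.42.0). CPM used TMM-scaled library sizes. Ratios used counts plus 0.5 per kilobase of exon and exact two-sided permutation. Likeness was the Pearson correlation of log2 CPM (prior count 2) after subtraction of group means. Scripts were tested on simulated data. Libraries within a group differed by more than sampling noise (chi-square per gene at least 13.3), so each was counted as 1 sample. The labels do not say more of the relation between mice than that each is a separate sample.

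The 10 genes, the 6 pathway lists and the 11 marker lists were chosen with earlier results of these data known. Named genes were the 10, the 3 constitutive partners, *H2-K1*, *H2-D1*, *Ifng*, *Irf1*, *Rfx5*, *Ciita* and *Sirt6*, up to 4 more per pathway list with the largest changes in males among those past the threshold, and the 10 genes of highest likeness. *Nfyc* is named as a member of a count, after its values were seen, and 1 gene that the rule also names is not reported here. Alternatives were RLE, upper-quartile and no scaling factors, filterByExpr and no filter, DESeq2, each sex fitted alone, the replicate number as a block, and each library left out, with 2 surrogate variables (sva 3.50.0) added after seeing the data.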

Additional observations from a re-analysis of the deposited data

Results flagged for a closer look

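In groups of 7, a sample was singled out where its gap to the nearest other, as a share of the group's range on the log2 scale, was above 0.568. Of 52 such tests 3 were passed, and chance alone passes about 1 in 20. *Psme2* in WT male 6 stood above its group at 126 CPM (share 0.578). *Tap1* in SIRT6-tg female 2 was at 94.8 CPM (share 0.599), and the *Psmb9* to *Psmb6* log2 ratio of the same mouse was -1.40 (share 0.658). In that mouse *Irf1* was at 69.6 CPM against 35.1 to 62.7 in the other 6 of its group, *Ciita* at 4.66 against 0.708 to 2.44 and *H2-K1* at 2246 against 1147 to 1891. Its *Psmb5*, *Psmb6* and *Psmb7* levels of 22.6, 93.5 and 67.3 CPM were inside the range of the others, as was *Ifng* at 0.0638 CPM.

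The genotype effect differed between the sexes by a test of the difference itself for *Tap1* (-1.44, adjusted p = 0.00588, edgeR). The male minus female effect was -1.28 for the *Psmb8* to *Psmb5* log2 ratio (adjusted p = 0.00605, permutation of genotype within each sex). For the *Psmb9* to *Psmb6* log2 ratio it was -1.76 (adjusted p = 0.00481, same permutation). These permutations refer to no genotype effect in either sex, and equal effects were not tested for the ratios. Transgene level differs between the sexes too, and the 2 cannot be told apart.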

How the results depend on the processing

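In males the number of the 10 genes lower in SIRT6-tg mice was 6 under RLE, upper-quartile factors, filterByExpr, no filter, DESeq2, males fitted alone and the replicate block, 9 with library size alone and, with single libraries left out, 4 to 6. It was 9 with 2 surrogate variables, added after seeing the data. In females it was 0 throughout. Over all genes, the count in males rose from 4467 to 7440 with surrogate variables, and in females from 6 to 42 with DESeq2 and 20 with surrogate variables, to 2 with females fitted alone and to 3 to 16 with single libraries left out. The split of male calls was 2377 lower and 2090 higher with TMM, 2511 and 1395 with RLE, 2649 and 942 with upper-quartile factors, 4084 and 210 with library size alone, 2588 and 990 with males alone and 2980 and 4460 with surrogate variables. The genes whose effect was more negative in males went from 1 of the 10 to 2 with RLE, upper-quartile factors or filterByExpr, 3 with DESeq2, 5 with library size alone, 7 with surrogate variables, and 1 to 3 with single libraries left out. Over all genes, calls of a sex difference in either direction rose from 1089 to 1863 with library size alone and 2763 with surrogate variables, and those more negative in males from 3.84% of genes to 8.51% and 5.95%, while calls in either direction between WT males and WT females rose from 2669 to 4212 and 4982. Of the 10, 2 to 4 were higher in WT males with single libraries left out. Of the 10, the number lower in SIRT6-tg males than in SIRT6-tg females went from 1 to 2 with RLE, upper-quartile factors, library size alone, filterByExpr or DESeq2, 3 with surrogate variables, 0 with no filter, and 0 to 2 with single libraries left out.

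Values near 0 changed sign. In females, with surrogate variables, *Psmb9* was at 0.15, *Psmb10* 0.0181, *Psme2* 0.0738, *Tap1* 0.0259, *Tap2* 0.0427 and *Nlrc5* -0.0160, with library size alone *Psmb9* 0.00680 and *Tap1* 0.00557, with upper-quartile factors *B2m* -0.00909 and *Nlrc5* -0.00591, with filterByExpr *B2m* -0.00706 and *Nlrc5* -0.00574, and with the replicate block *B2m* -0.0223 and *Nlrc5* -0.0644. Between WT males and females *B2m* was at -0.0256 with surrogate variables. Between the SIRT6-tg groups, surrogate variables gave *Psmb8* -0.11, *Psmb10* -0.19, *Psme2* -0.11 and *Tap2* -0.13, *Tap2* was at -0.0178 with upper-quartile factors and -0.0535 with library size alone, and *Psmb9* at 0.00208 with the replicate block. With single libraries left out, the female values ranged for *B2m* from -0.0759 to 0.0714, *Nlrc5* -0.24 to 0.0936, *Psmb9* -0.40 to 0.21, *Psme2* -0.19 to 0.11, *Tap1* -0.39 to 0.12, *Tap2* -0.16 to 0.13, *Psmb8* over *Psmb5* -0.25 to 0.00812 and *Psmb9* over *Psmb6* -0.29 to 0.0678. *Psme2* in males ranged from -0.40 to 0.13. Between the SIRT6-tg groups the ranges were -0.0161 to 0.35 for *Psmb10*, -0.28 to 0.29 for *Psmb9*, -0.0265 to 0.38 for *Psme2*, -0.43 to 0.0485 for *Tap1* and -0.0371 to 0.19 for *Tap2*, between the WT groups -0.0497 to 0.13 for *B2m*, and for the difference between the sexes -0.22 to 0.0223 for *Psme1* and -0.38 to 0.14 for *Psme2*. The sex difference of *Psmb10* against the mean of the core, -0.79, passed its permutation test, which refers to no genotype effect in either sex. Of the 10 genes of highest likeness, 6 stayed with Spearman's rho and 2 in males alone. The causes were not tested.

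Deviations of same-numbered samples correlated from -0.345 to 0.328 over 42 pairs (median 0.0353, against 0.00919 for 252 other pairs). Expression thus showed no pairing by replicate number. Such correlations cannot show whether same-numbered mice were litter or cage mates. Per the study's methods, comparisons were made among littermates, and both genotypes shared cages. With the replicate block, 6 of the 10 genes were lower in SIRT6-tg males, as without it. With 7 mice per group, low genes such as *Ifng* are limited by depth.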
